A study of Mus musculus with 3 samples.

Results

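SREBP control and cholesterol transport were described through 8 mouse genes, taken as a named list: Srebf1, Srebf2, Scap, Insig1, Insig2, Stard4, Npc1 and Abca1. All 16 probe sets whose annotation gives one of these symbols alone were used, out of 34945 probe sets with 1 symbol that stand for 18193 genes. The samples were RNA from 4T1, a mouse mammary carcinoma line, on Affymetrix Mouse Genome 430 2.0 arrays, 1 array for each of 3 conditions. All 4T1 cells grew in RPMI-1640 with FBS; one condition had regular medium alone, with no culture time stated, another had medium conditioned by MSCs (MSC-CM; MSC commonly stands for mesenchymal stem cell) for 1 week, and the last had 1 week of contact with MSCs before the 4T1 cells were isolated. Neither the source of the MSCs nor the way the cells were separated is stated in the labels. With 1 array a condition there is no replicate error and no test, and each difference compares 2 arrays.

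The proteins of this group sense and move cholesterol. SREBP-1 and SREBP-2, made from Srebf1 and Srebf2, are transcription factors held in the endoplasmic reticulum membrane by the escort SCAP. When sterol is plentiful INSIG proteins keep SCAP in place, and when it is scarce SCAP carries the SREBP to the Golgi, where proteases free the part that enters the nucleus and raises genes of lipid synthesis and uptake. STARD4 carries cholesterol between membranes, NPC1 lets cholesterol leave the lysosome, and ABCA1 exports it to lipoproteins outside the cell. Insig1, Stard4 and Srebf2 are themselves known targets of SREBP-2, and Abca1 of the oxysterol receptor LXR.

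Array values are MAS5 signals on a linear scale. The floor was 42.4, the 40th percentile pooled over the arrays; lower signals took that value ahead of the log2 step, and a signal of 149.3 or more, the pooled 60th percentile, is called bright. For a gene with several probe sets, the one with the highest mean signal stood for the gene. The size rule called a gene where one array exceeded the other by 2-fold or more with a bright signal on the higher side. The median signals of the 3 arrays lay between 71.6 and 79.8, and 38.0% to 41.4% of probe sets were at or below the floor. The epithelial markers fixed for 4T1 cells were bright, 10 of 10, and summed to 72127, 74585 and 92386 (regular medium, conditioned medium, co-culture). Of them 1, the keratin Krt14, was called lower in co-culture against each of the other conditions. Of 14 named MSC and fibroblast markers, 6 were bright on at least 1 array. Against regular medium 2 of these, Bgn and Postn, were called higher in co-culture and none lower. Over all genes bright on at least 1 of those arrays, 5.81% were called higher and 2.76% lower. Against conditioned medium 1 marker, Bgn, was called higher. Bgn had 12.3, 57.8 and 181.5 in the same order, so it was bright in co-culture alone. The summed signal of all 14 markers was 1673, 1876 and 3203 in that order, with 7, 7 and 5 at or below the floor. Col1a1, Dcn, Mgp, Pdgfrb and Thy1 were at or below the floor on all 3 arrays. The 9 macrophage and leukocyte markers summed to 918.7, 864.9 and 930.9, and Ptprc was at or below the floor throughout. In RNA pooled over many cells, fewer cells of a type and less RNA per cell cannot be told apart.

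Of the 8 genes, 7 were bright on at least 1 array, and Abca1 was not. In co-culture against regular medium, Stard4 and Insig1 were called lower and Npc1 higher. The other 4 genes tested (Srebf1, Srebf2, Scap and Insig2) did not meet the rule. Over all genes, 9393 were bright on at least 1 of these 2 arrays and 8.57% were called, 5.81% higher and 2.76% lower. The 7 genes had a median log2 difference of -0.35, beside 0.07 over all tested genes, and spanned -1.79 to 1.49.

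**Figure D1:**
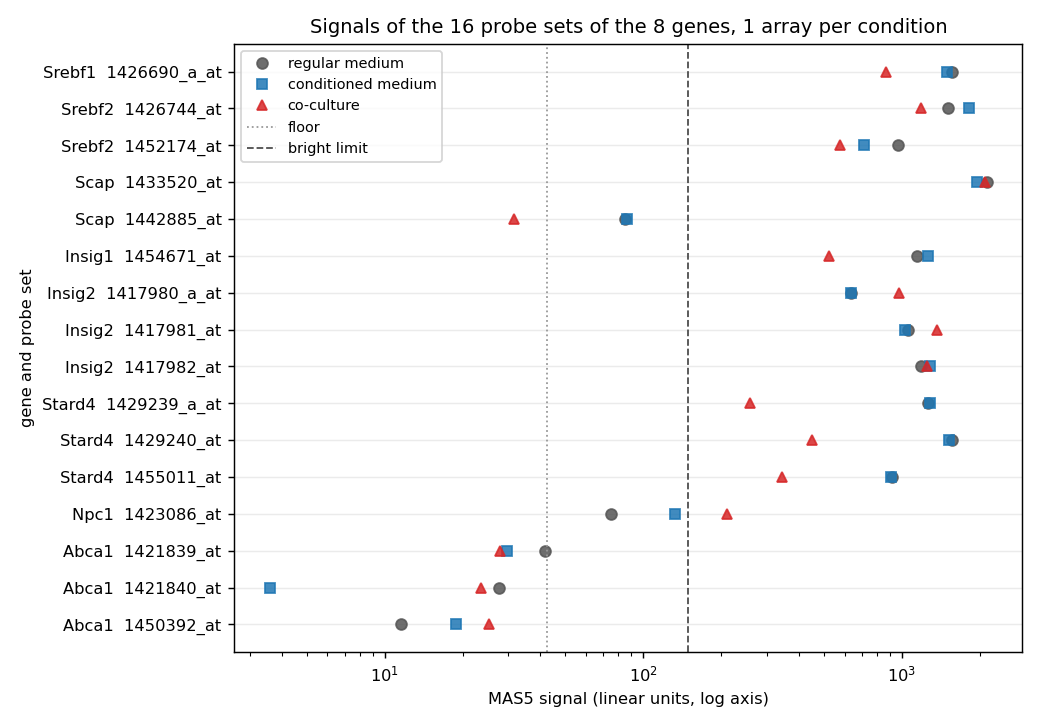
MAS5 signal (log axis) of each of the 16 probe sets on the regular-medium, conditioned-medium and co-culture arrays, 1 point per array. All 3 Stard4 probe sets and the Insig1 probe set sit to the left in co-culture, while the dotted floor of 42.4 and the dashed bright limit of 149.3 show that Abca1 stayed dim.

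The promoters of 3 of the genes are shown: Insig1, which met the size rule in co-culture, and both factors, which did not. The RefSeq promoter table (GRCm38.p6) matched 6 of the 8 genes (all but Stard4 and Npc1) with 11 start sites, and the 250 bases before each start were searched on both strands. Capitals mark NF-Y boxes (CCAAT), E-boxes (CACGTG) and a core of the sterol regulatory element (TCACCC), in either orientation. The first is Insig1 at chr5:28071162-28071411 on the plus strand, then Srebf2 at chr15:82147019-82147268 on the plus strand, then 1 of 3 starts of Srebf1 at chr11:60210472-60210721 on the minus strand.
Insig1: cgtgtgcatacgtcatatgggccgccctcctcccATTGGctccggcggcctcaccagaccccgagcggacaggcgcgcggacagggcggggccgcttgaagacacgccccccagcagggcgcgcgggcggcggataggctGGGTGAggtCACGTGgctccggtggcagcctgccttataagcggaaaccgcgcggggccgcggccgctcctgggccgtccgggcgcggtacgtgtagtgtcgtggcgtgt
Srebf2: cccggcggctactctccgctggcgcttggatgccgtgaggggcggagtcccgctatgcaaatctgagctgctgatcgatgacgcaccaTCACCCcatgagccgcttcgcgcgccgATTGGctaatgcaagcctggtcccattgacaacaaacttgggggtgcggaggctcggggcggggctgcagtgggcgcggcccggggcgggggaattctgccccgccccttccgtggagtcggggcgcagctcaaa
Srebf1: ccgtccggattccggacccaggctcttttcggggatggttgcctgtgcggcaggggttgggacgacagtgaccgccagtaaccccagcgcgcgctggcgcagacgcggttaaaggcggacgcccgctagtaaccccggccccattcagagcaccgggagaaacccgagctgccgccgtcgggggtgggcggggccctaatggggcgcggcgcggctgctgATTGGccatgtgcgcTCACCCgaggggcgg

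The core TCACCC was chosen after the sequences were read, and 13.8% of all 32851 promoters of this length hold it. It was in 5 of the 11 starts, in Insig1, Insig2, Srebf1 and Srebf2. In Insig1 the core began 110 bases before the start and the E-box 101 bases before it. In Srebf2 the core began 162 and the CCAAT match 135 bases before the start, and in Srebf1 they began 15 and 30 bases before it. CCAAT was in the same 4 genes, with 5 starts, and in 33.8% of all promoters. The E-box was in 3 of the 11 starts, in Abca1, Insig1 and Scap, and in 6.02% of all promoters. The GC box GGGCGG was in 8 of the 11 starts, spread over all 6 genes, and in 32.7% of all promoters. The longer form TCACNCCAC was in none of the 11 starts and in 1.05% of all promoters. These matches are descriptions of letters only. Insig2 holds the core at 2 of its 3 starts, and Srebf1 at 1 of its 3, the start shown.

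Among the transcription factors, Srebf1 (probe set 1426690_a_at) had signals of 1568 with regular medium, 1497 with conditioned medium and 866.1 after co-culture. The co-culture array was the low one and the others were close together. The log2 difference of co-culture from regular medium was -0.86, or 1.81-fold lower, short of the 2-fold rule. Of the tested genes, 4.33% had a difference as low or lower. No other probe set named Srebf1 alone.

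Srebf2 had 2 bright probe sets. The brighter, 1426744_at, gave 1510.1, 1812 and 1185 in regular medium, conditioned medium and co-culture, and the other, 1452174_at, gave 964.4, 714.2 and 574.5. Co-culture was lowest by both, with log2 differences of -0.35 and -0.75 from regular medium, neither of which met the rule. In conditioned medium the probe sets pointed apart, at 0.26 and -0.43. That gap of 0.70 was wider than the 90th percentile of 0.50 over 12006 pairs of bright probe sets of 1 gene in that comparison, so no direction is given for Srebf2 in conditioned medium. In co-culture their gap of 0.40 was near the median of 0.37 over 12305 pairs.

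Scap, the escort, had nearly level signals by its bright probe set, 1433520_at: 2127 with regular medium, 1947 with conditioned medium and 2092 after co-culture. The log2 difference of co-culture from regular medium was -0.02. Its other probe set, 1442885_at, was dim on every array, with 85.2, 86.8 and 31.6. The co-culture value lay under the floor, and this probe set enters only the alternative that takes the median over probe sets, where Scap was -0.52 against regular medium. With median scaling Scap was 0.11, so no direction is given for it.

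Of the 2 anchors, Insig1 met the rule and Insig2 did not. Insig1 (1454671_at), the form induced by SREBP, had 1139.7 with regular medium, 1266 with conditioned medium and 521.1 after co-culture. It was 2.19-fold lower in co-culture than in regular medium (log2 difference -1.13), and 1.92% of tested genes lay as low or lower. With each array scaled to a common median the value was -0.99 and the call was lost. That scaling moved the median of all measured genes by 0.14, from 0.07 to 0.21, and relative to the median Insig1 lay at -1.20 under both scalings.

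Insig2, which is encoded apart from Insig1 and blocks SCAP in the same way, had 3 bright probe sets. By 1417982_at the signals were 1184 with regular medium, 1284 with conditioned medium and 1255 after co-culture, a log2 difference of 0.08. By 1417981_at they were 1060.3, 1026 and 1373, and by 1417980_a_at 636.0, 637.8 and 974.2, with differences of 0.37 and 0.62. All 3 gave a co-culture value above regular medium, none by 2-fold, and their widest gap of 0.53 lay between the median of 0.37 and the 75th percentile of 0.70 over pairs of probe sets.

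Stard4, the cholesterol carrier of the START family, had the largest difference of the 8 genes. By 1429240_at its signals were 1559 with regular medium, 1524 with conditioned medium and 449.4 after co-culture, 3.47-fold lower (log2 difference -1.79). By 1429239_a_at they were 1258, 1287 and 258.7, or 4.86-fold lower, and by 1455011_at 913.6, 904.4 and 343.2, or 2.66-fold lower. All 3 probe sets met the rule in the same direction, and under the 3-fold rule Stard4 alone of the 8 genes was called. Only 35 of the 9393 tested genes, 0.373%, lay as low or lower.

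Npc1, the lysosomal cholesterol exporter, went the other way by its single probe set, 1423086_at. Its signals were 75.3 with regular medium, 132.4 with conditioned medium and 211.1 after co-culture, so the co-culture array alone was bright. The difference was 2.80-fold higher (log2 1.49), and 2.14% of tested genes lay as high or higher. With the floor raised to the 60th percentile the log2 difference was 0.50, and the call was lost there, with the bright limit at the 80th percentile and under the 3-fold rule. The summed signal of the MSC and fibroblast markers was also higher, 3203 against 1673. Postn carried most of that gap, with 765.6 in regular medium and 1803 in co-culture, and the part of these markers in the Npc1 value was not tested.

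Abca1, the exporter, was dim by each of its 3 probe sets. In regular medium, conditioned medium and co-culture 1421839_at gave 41.8, 29.7 and 27.9, 1421840_at gave 27.7, 3.6 and 23.5, and 1450392_at gave 11.6, 18.8 and 25.2. Every value lay at or below the floor, so no fold is given.

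**Figure D2:**
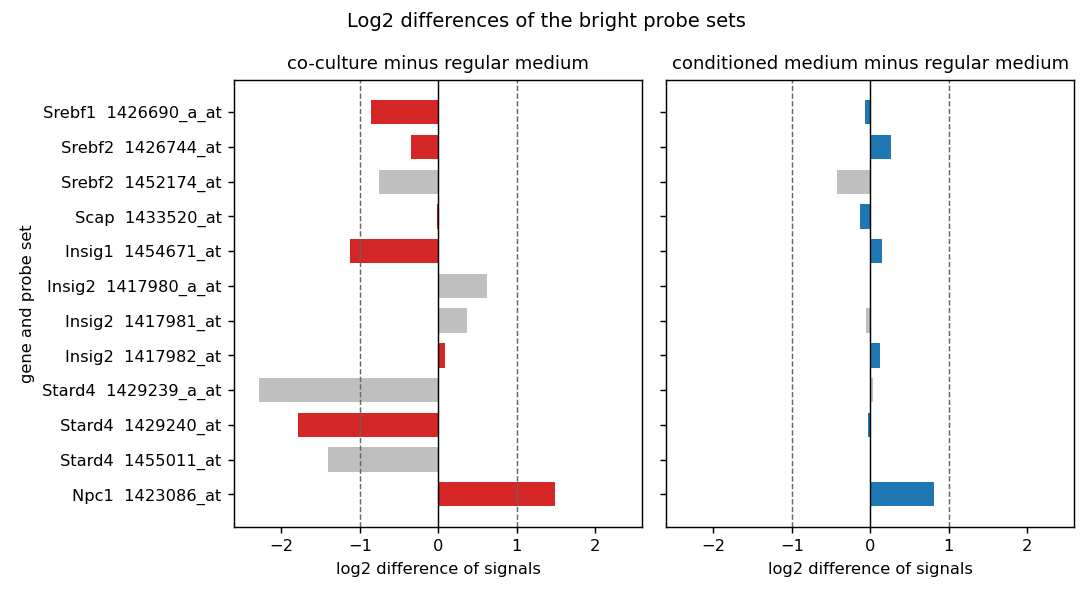
Log2 difference of co-culture (left) and conditioned medium (right) from regular medium for the 12 bright probe sets, 1 bar each, coloured where the probe set stands for its gene and grey otherwise. Dashed lines mark 2-fold; the 3 Stard4 bars and the Insig1 bar pass it on the lower side and Npc1 on the higher side in co-culture, and none does in conditioned medium.

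Conditioned medium against regular medium compares cells that had no contact with MSCs. None of the 6 genes tested met the rule, where 0.415% of 9152 tested genes did. By the probe sets that stand for the genes, the log2 differences lay between -0.13 for Scap and 0.26 for Srebf2, whose other bright probe set gave -0.43. Their median was 0.04 beside 0.01 over all tested genes. Stard4 had -0.03, Srebf1 -0.07, Insig2 0.12 and Insig1 0.15. All 3 Stard4 probe sets lay within 0.03 of 0. Npc1 had a difference of 0.81 between 2 signals that were not bright, and it was not tested. Median scaling moved the median of all genes by 0.16 in this comparison and turned the signs of Srebf1, Scap and Stard4, to 0.09, 0.03 and 0.12.

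Co-culture against conditioned medium compares the MSC conditions with each other. It shares its arrays with the comparisons above and is no further evidence for them. Stard4 and Insig1 were again called lower, at -1.76 and -1.28, where 8.43% of 9350 tested genes were called and 2.6% were lower. Srebf1 had -0.79, Srebf2 -0.61, Scap 0.10, Insig2 -0.03 and Npc1 0.67, and none of these met the rule. The other bright probe sets of Insig2 gave 0.61 and 0.42, so no direction is given for it here. For Npc1 the conditioned-medium signal of 132.4 lay between the others. Separation from a mixed culture applied to the co-culture array alone, so contact and isolation cannot be told apart.

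**Figure D3:**
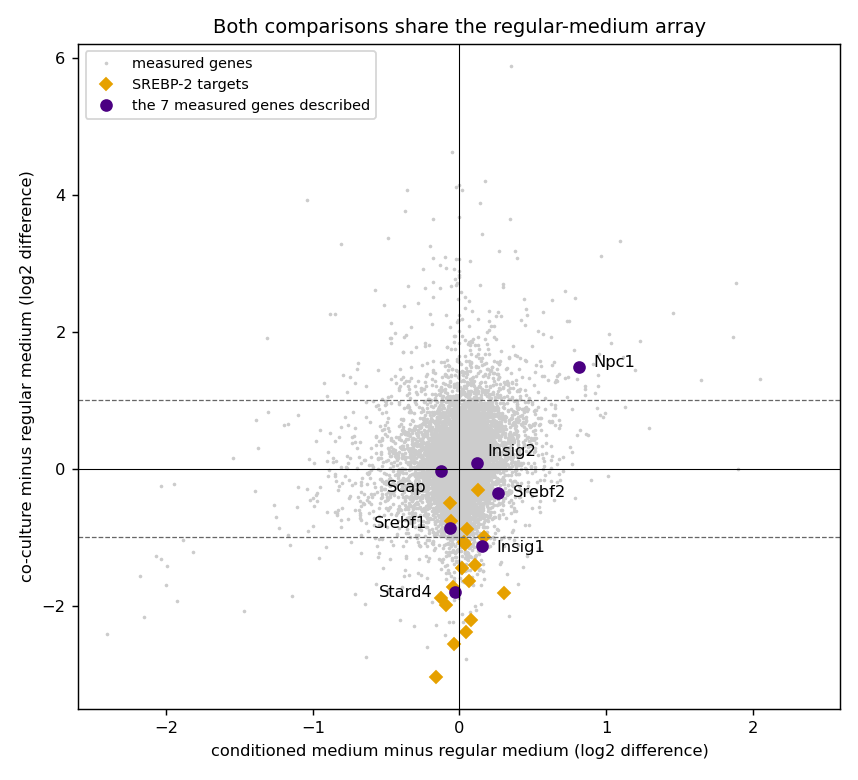
Each point is 1 measured gene, placed by its log2 difference of conditioned medium (horizontal) and of co-culture (vertical) from the same regular-medium array. Stard4 (-1.79) and Insig1 (-1.13) lie among the SREBP-2 targets (diamonds) below the dashed 2-fold line and near 0 horizontally. By the probe set that stands for each gene, Scap and Insig2 lie near 0 on both axes. The other bright Insig2 probe sets, not plotted, gave 0.37 and 0.62 in co-culture.

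Other genes of the pathway were taken from lists written for this description with earlier results of these arrays known, so their directions are not independent support. The machinery that cleaves SREBP, moves it and turns the complex over had 21 measured genes. Of these, 1 was called higher and 1 lower in co-culture against regular medium, where 8.57% of all tested genes were called. The list median was 0.11, beside 0.07 over all measured genes. With the bright limit at the 80th percentile none of 18 was called higher and 1 lower. With the median over probe sets 1 of 21 was called higher and 2 lower. Rnf145, a ubiquitin ligase of the endoplasmic reticulum that acts on SCAP, had 6001 with regular medium, 5896 with conditioned medium and 2471 after co-culture, 2.43-fold lower. Paqr3, a Golgi protein that binds SCAP, had 199.3, 186.0 and 565.9, 2.84-fold higher. The proteases Mbtps1 (site 1) and Mbtps2 (site 2), chosen for their role after the values were seen, had differences of 0.04 and 0.11.

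SREBP-2 targets of sterol synthesis and uptake were lower as a list in co-culture, with 13 of 18 measured genes called lower, none higher, and all 18 below 0. Over all tested genes 2.76% were called lower. The list median was -1.54, beside 0.07 over all measured genes, and it was -1.40 with median scaling and -1.56 with quantile normalization. Idi1, which makes dimethylallyl diphosphate, was 8.23-fold lower, Fdps 5.87-fold, Nsdhl 5.21-fold and Fdft1 4.61-fold. Mvk, Hmgcs1, Mvd, Hsd17b7, Lss, Msmo1, Tmem97, Dhcr7 and Cyp51 were 2.09-fold to 3.97-fold lower. Stard4 at -1.79 lay inside the quartiles of this list, -1.96 to -1.01, and so did Insig1 at -1.13. Srebf1 and Srebf2, at -0.86 and -0.35, lay above them. Against conditioned medium 14 were called lower, with Sc5d, a sterol desaturase, added at -1.16. In conditioned medium the list median was 0.04 and none of the 18 was called.

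SREBP-1 targets of fatty acid synthesis had 5 of 13 measured genes called lower and none higher in co-culture, where 2.76% of all tested genes were lower. The median was -0.52, beside 0.07 over all measured genes. Lpin1, a phosphatidate phosphatase, was 6.05-fold lower, the desaturases Scd2 and Fads2 3.12-fold and 2.97-fold, the elongase Elovl6 2.30-fold and the fatty acid synthase Fasn 2.14-fold.

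Among genes of cholesterol transport and storage, 4 of 24 measured were called higher and none lower in co-culture, where 5.81% of all tested genes were higher. The median was 0.23, beside 0.07 over all measured genes, and 18 were above 0. With the median over probe sets 2 of 21 were called higher, and 2 of 13 with the bright limit at the 80th percentile. With possibly cross-hybridising probe sets left out (names ending in _a_at, _s_at or _x_at), 3 of 16 were called higher. Scarb2, a lysosomal membrane protein, had 777.8 with regular medium, 887.0 with conditioned medium and 3108 after co-culture, 4.00-fold higher. Vldlr, a lipoprotein receptor, was 3.60-fold higher, Nceh1, a hydrolase of cholesteryl esters, 2.40-fold, and Lrp1, an endocytic receptor, 2.30-fold. Npc2, the lysosomal partner of NPC1, chosen for that role after its value was seen, had 8010.2, 7921 and 8786, a difference of 0.13. The 6 measured MSC and fibroblast markers had a median difference of 0.89, with 5 above 0 and 1 below. Over all 14 named markers it was 0.02, with 7 above 0, 2 below and 5 at the floor on both arrays. The part of these markers in the values above was not tested.

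The list of LXR, its partners and its targets gave no call in co-culture against regular medium among 7 measured genes. Over all tested genes 8.57% were called. The list median was -0.41, beside 0.07 over all measured genes. No LXR gene was among the 7, which held partner receptors and a nuclear receptor coactivator beside LXR targets. Over all 11 named genes the median was 0.00, with 5 above 0 and 5 below, and it was -0.83 over the 3 genes left by the 80th percentile limit. Median scaling called 1 gene higher, quantile normalization called 1 lower, and the median over probe sets called 1 each way and gave -0.08. Mylip, a ligase that degrades lipoprotein receptors, had 551.2, 410.0 and 278.4, a difference of -0.99. Pltp, a phospholipid transfer protein, had 345.2 with regular medium, 293.3 with conditioned medium and 689.3 after co-culture. Its difference from regular medium was 1.00 after rounding and just under the rule, and from conditioned medium it was 1.23 and called higher. Of the named genes, Abcg1, Apoe, Nr1h3 and Smpdl3a were dim on all 3 arrays, as Abca1 was.

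**Figure D4:**
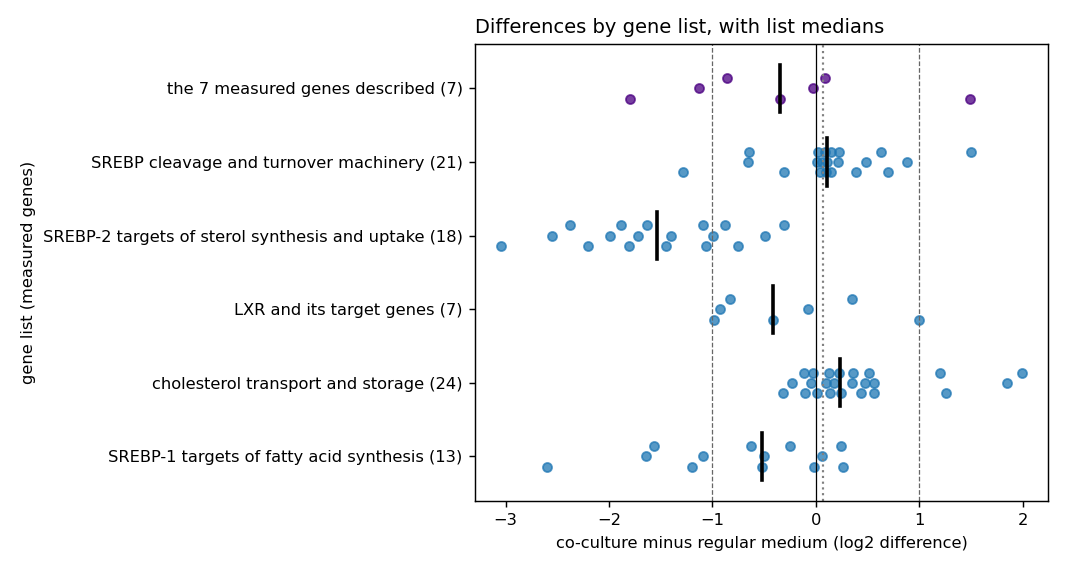
Log2 difference of co-culture from regular medium for each measured gene (points) of the 7 genes described and of 5 further lists, with list medians as black bars, the median of all measured genes as a dotted line and 2-fold as dashed lines. The SREBP-2 targets centre on -1.54, the SREBP-1 targets on -0.52 and the transport genes on 0.23.

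The 5 measured genes nearest to Stard4, by Euclidean distance over the 2 log2 differences from regular medium on 3 arrays, were sought among 9219 named genes. They were Mtfr2, a mitochondrial fission regulator, at a distance of 0.021, Hsd17b7, an enzyme of sterol synthesis, at 0.073, and Pimreg, a mitotic protein, at 0.082. Tnfrsf22, a decoy death receptor, was at 0.090 and Mmab, an enzyme of cobalamin metabolism, at 0.119. Nearness over 3 arrays is a description.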

How the data were processed

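The labels assign 3 Affymetrix arrays of 4T1 RNA to 3 conditions. The authors deposited intensity values on a linear scale; the submitters' processing notes name MAS5 but no version or scaling target. MAS5 summarises each probe set and scales whole arrays, so a shift shared by all genes cannot be seen. Of 45037 probe sets, 34945 had 1 gene symbol, 932 several and 9160 none; the gene ID gave 34741 of them a current symbol. The floor (42.4), the bright limit (149.3), the 2-fold rule and the choice of 1 probe set per gene are as in the results. With 1 array a group no test was run, and 3 arrays limit the precision. The members and lists were chosen with earlier results of these data known. Some listed genes were not analysed here.

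Named genes were the 8 members with every probe set and, of each further list, the genes past the size rule or otherwise the 2 with the largest difference in co-culture. The 5 genes nearest to the member with the largest difference were added, passing over clone, locus and RIKEN names. Mbtps1, Mbtps2 and Npc2 lie outside this rule. Alternatives covered scaling, floor, filter on low signals, choice of probe set and size rule. The steps were tested on simulated data. Promoters came from RefSeq (GRCm38.p6). Software was SciPy 1.17.1, pandas 2.3.3, NumPy 2.4.6 and Python 3.11.15.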

Additional observations from a re-analysis of the deposited data

How the results depend on the processing

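Over 11 alternative settings, Stard4 was called lower in co-culture against both other conditions under each, at -1.87 to -1.66 and -1.91 to -1.73. Insig1 ranged from -1.16 to -0.99 against regular medium and lost its call with median scaling and the 3-fold rule. Npc1 ranged from 0.50 to 1.63 and lost its call under 3 settings. Srebf1, whose 1 probe set has a name ending in _a_at and so no value once names ending in _a_at, _s_at or _x_at were left out, was called only under the 1.5-fold rule. Of the 8 genes, the 3-fold rule called 1 in each co-culture comparison. Over all tested genes it called 222 of 9393 against regular medium and 233 of 9350 against conditioned medium. The 1.5-fold rule called 4 of the 8 against regular medium (1 higher, 3 lower), where it called 2512 of 9393 tested genes. It called 5 of the 8 against conditioned medium (1 higher, 4 lower), where it called 2509 of 9350 tested genes. Srebf2 was called against conditioned medium alone, at -0.61, and its other bright probe set gave -0.31 there. No member was called in conditioned medium against regular medium under any setting.

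The 805 genes called in co-culture against regular medium became 2512 with the 1.5-fold rule, 222 with the 3-fold rule and 435 with the bright limit at the 80th percentile. The 788 against conditioned medium became 2509, 233 and 423 in the same order. The 38 called in conditioned medium against regular medium became 203, 17 and 2, and 3 with the floor at the 60th percentile and 259 without a signal filter. Higher genes made up 67.8% of calls in co-culture against regular medium and 82.7% with median scaling, and 26.3% in conditioned medium against 58.1% with median scaling and 37.5% with quantile normalization.

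Values near 0 changed sign. In conditioned medium against regular medium Scap was 0.03 with median scaling, and with the median over probe sets Srebf2 was -0.09 and Insig2 -0.05. In co-culture against conditioned medium, with the median over probe sets, Scap was -0.47, Insig2 0.29 and the cleavage machinery -0.01. The LXR list median in conditioned medium against regular medium was 0.02 with the 80th percentile limit and with the median over probe sets. It was 0.01 without probe sets of those name endings. In co-culture against conditioned medium it was 0.06 without a signal filter and 0.10 both with the median over probe sets and without those name endings. Alternatives such as fewer genes tested or fewer probe sets change these by construction, and other causes were not tested. No paired analysis was possible because each condition had 1 array.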
